A study of Homo sapiens with 12 samples.

Results

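The 4 human genes G3BP2, TIAL1, ADAR and ZC3H13, which all act on RNA, were followed through an m7G meRIP-seq study of THP-1 cells. Peaks were taken where they overlapped the RefSeq body of one of these genes in the build GRCh38, which gave 6 of the 9958 deposited peaks. G3BP2, TIAL1 and ADAR had 1 peak each and ZC3H13 had 3.

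The assay pulls down RNA fragments that carry 7-methylguanosine (m7G) with an antibody and sequences them (IP) beside the unselected RNA, taken here to be the libraries labelled IN (input). KD denotes THP-1 cells with a short hairpin against METTL1, the catalytic subunit of an m7G methyltransferase, and NC the control, which the series text calls wild type. Both were treated alike with the phorbol ester PMA at 100 ng/ml for 48 hours, which turns this human monocytic leukemia line into adherent, macrophage-like cells. The 12 libraries formed 4 groups of 3, namely KD IP, KD IN, NC IP and NC IN. The labels name neither the hairpin sequence nor a clone, nor do they say whether the 3 libraries of a group came from separate cultures, so p values measure only the spread between these libraries.

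G3BP2 is an RNA-binding protein that, with its relative G3BP1, nucleates stress granules, the cytoplasmic bodies in which stalled mRNAs gather under stress. TIAL1, also known as TIAR, binds U-rich RNA and joins the same granules. ADAR deaminates adenosine to inosine in double-stranded RNA, and its editing of the cell's own RNA keeps innate sensors of double-stranded RNA quiet. ZC3H13 is a cofactor of the m6A methyltransferase complex, the machinery that methylates adenosine inside mRNA, where it links WTAP to the RNA-binding subunit. In mouse stem cells it keeps that complex in the nucleus.

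The peaks lay at different places in the genes. All 6 were on the strand of the gene, and none overlapped another peak of the table. Gene bodies include introns and no exon annotation was used, so exon, intron and untranslated region were not told apart. The G3BP2 peak (chromosome 4, 75645526 to 75645676, 151 bases) was centred at 96.6% of the gene body from its 5′ end. The TIAL1 peak (chromosome 10, 119596639 to 119596909, 271 bases) began 55 bases after the annotated start of the gene and also overlapped the non-coding gene LOC105378512. The ADAR peak (chromosome 1, 154608090 to 154608241, 152 bases) lay at 43.2% of the gene body, 556 bases after the last of 3 annotated starts. In ZC3H13 the upstream peak (chromosome 13, 46052608 to 46052669, 62 bases) began 77 bases after the start, the middle peak (46003145 to 46003326, 182 bases) lay at 50.4% and the downstream peak (45967645 to 45968006, 362 bases) at 86.4%. The median length of all peaks was 182 bases.

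**Figure D1:**
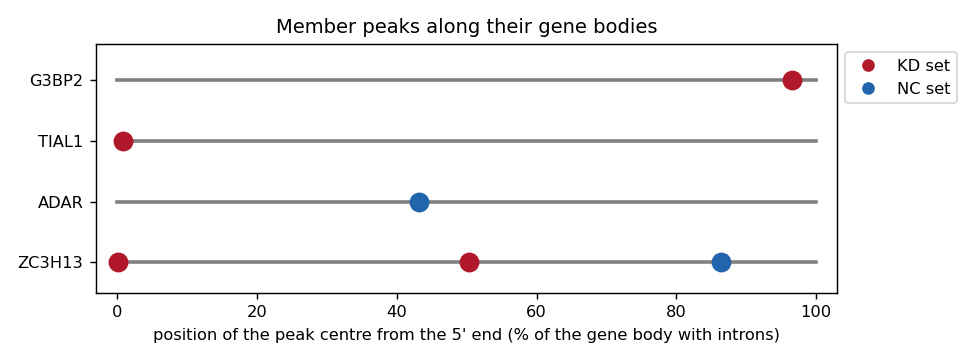
Position of the 6 peak centres along each gene body, in percent of its length with introns, counted from the 5′ end; red points were called in the KD set and blue points in the NC set. The TIAL1 peak and the upstream ZC3H13 peak sit at the start of their genes and the G3BP2 peak near the end, at 96.6%.

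The start regions nearest to the TIAL1, upstream ZC3H13 and ADAR peaks are shown because these are the peaks that follow an annotated start most closely. Each runs 5′ to 3′ from 250 bases before the start, on the minus strand, with the initial 50 transcribed bases in capitals (RefSeq, GRCh38.p14). The TIAL1 window is chr10:119596915-119597214 and ends 5 bases before the peak. The ZC3H13 window is chr13:46052697-46052996, ending 27 bases before the peak, and the ADAR window is chr1:154608748-154609047, ending 506 bases before it.
TIAL1: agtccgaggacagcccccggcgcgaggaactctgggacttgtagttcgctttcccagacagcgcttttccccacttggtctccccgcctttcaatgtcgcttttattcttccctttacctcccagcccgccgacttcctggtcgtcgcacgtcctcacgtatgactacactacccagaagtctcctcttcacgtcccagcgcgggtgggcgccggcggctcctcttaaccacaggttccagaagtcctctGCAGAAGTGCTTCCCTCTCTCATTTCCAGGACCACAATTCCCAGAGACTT
ZC3H13: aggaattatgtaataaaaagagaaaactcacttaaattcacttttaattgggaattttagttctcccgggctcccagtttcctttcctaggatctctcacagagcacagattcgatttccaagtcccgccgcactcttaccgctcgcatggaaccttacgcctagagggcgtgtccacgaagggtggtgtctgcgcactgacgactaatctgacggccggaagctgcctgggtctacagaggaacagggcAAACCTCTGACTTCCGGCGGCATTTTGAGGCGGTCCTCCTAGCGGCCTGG
ADAR: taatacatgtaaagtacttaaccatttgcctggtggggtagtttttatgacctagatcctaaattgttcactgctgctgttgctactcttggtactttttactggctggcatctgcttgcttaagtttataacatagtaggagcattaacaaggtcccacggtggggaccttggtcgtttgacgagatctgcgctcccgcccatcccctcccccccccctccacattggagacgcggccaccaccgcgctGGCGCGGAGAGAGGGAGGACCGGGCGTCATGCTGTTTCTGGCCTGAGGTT
On both strands, the core of the ETS factor motif, CCGGAAG, was found once on each strand of the ZC3H13 window, and it was in 10.3% of all 35116 windows of this length. TATAAA was found once in the ADAR window, on the opposite strand, and in 11.5% of all windows. The core of the interferon-stimulated response element, GAAA followed after any 2 bases by GAAA, was in none of these 3 windows and in 3.57% of all. The motifs do not overlap each other in these windows. G and C made up 58.0% of the TIAL1, 52.0% of the ZC3H13 and 53.0% of the ADAR window, against a median of 58.7% over all windows.

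Reads in peaks summed to between 1476384 and 1888972 in the IP libraries and between 907024 and 1105477 in the IN libraries, which is not the sequencing depth. No peak overlapped METTL1, so the knockdown itself was not measured in these data. Markers of cell identity differed between KD and NC. Of 27 macrophage markers 10 had a peak (1 peak per gene; CPM is the usual count scaled to library size, here the TMM-scaled reads in tested peaks), and they summed to 1300 to 1385 CPM in KD IP and 716 to 858 CPM in NC IP, and to 1676 to 1871 CPM in KD IN and 934 to 1074 CPM in NC IN. CD14 and CSF1R, defining monocyte and macrophage receptors, had no peak. Counts cover peak regions only, so a missing or low peak does not by itself show low expression of a gene. Fibroblast markers (4 of 8 with a peak) summed to under 40 CPM in every library, and none of 9 lymphoid or 8 erythroid markers had a peak. Among the macrophage markers, LAPTM5, a lysosomal membrane protein of blood cells, had 370 CPM in KD IP and 215 CPM in NC IP, and 755 CPM in KD IN and 385 CPM in NC IN. LYZ, ITGAM and CD33, which monocytes usually express, averaged under 5 CPM in every group and had no common direction, with LYZ at 7 reads in KD IP and 17 in NC IP, and 8 in KD IN and 1 in NC IN. Of 13 markers of the kidney-derived line HEK293, 11 had a peak, and they summed to 868 to 944 CPM in KD IP and 7311 to 8302 CPM in NC IP, and to 1196 to 1399 CPM in KD IN and 9011 to 9735 CPM in NC IN. In KD IN, 4 of these 11, LIN28B, KRT18, CCDC8 and PNMA8A, had 0 reads and 8 averaged under 2 CPM, whereas none was under 2 CPM in NC IN. NEFM, a neurofilament gene, made up most of the NC sum, with 1.59 CPM in KD IN and 5483 CPM in NC IN. TCEAL9 made up most of the KD sum, with 686 CPM in KD IP and 1167 CPM in NC IP, and 987 CPM in KD IN and 2242 CPM in NC IN. NEFH went the other way, with 203 CPM in KD IP and 85.9 CPM in NC IP, and 296 CPM in KD IN and 137 CPM in NC IN, and the other 10 were higher in NC in both kinds of library. This list was written with earlier results of these data known. The higher sum held in all 3 NC libraries of each kind, so no comparison of KD with NC can be given without them. In each such comparison below, an effect of the knockdown and a difference in the cells sampled cannot be told apart, nor can fewer cells of a type and less RNA per cell.

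Levels per kilobase of peak set the order of the 6 peaks in input. In KD IN the G3BP2 peak had 4295 ± 277 CPM per kb (SD, n = 3), above the downstream ZC3H13 peak with 1918 ± 122, while the order in NC IN was the same with 5332 ± 555 and 2898 ± 208 CPM per kb. In KD IN the middle ZC3H13 peak followed with 349 ± 81.7 CPM per kb, and ADAR with 186 ± 121 and TIAL1 with 153 ± 23.3 could not be ordered within their spread. In NC IN the middle ZC3H13 peak had 624 ± 126 CPM per kb, TIAL1 173 ± 67 and ADAR 59.5 ± 35.8. The upstream ZC3H13 peak had 0 reads in KD IN and 29.3 ± 34.7 CPM per kb in NC IN. The G3BP2 peak exceeded 98.3% of all peaks per kb in KD IN and 98.5% in NC IN, so its values rest on 1484 to 2111 reads per group. Those of ADAR rest on 23 to 82 reads per group.

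**Figure D2:**
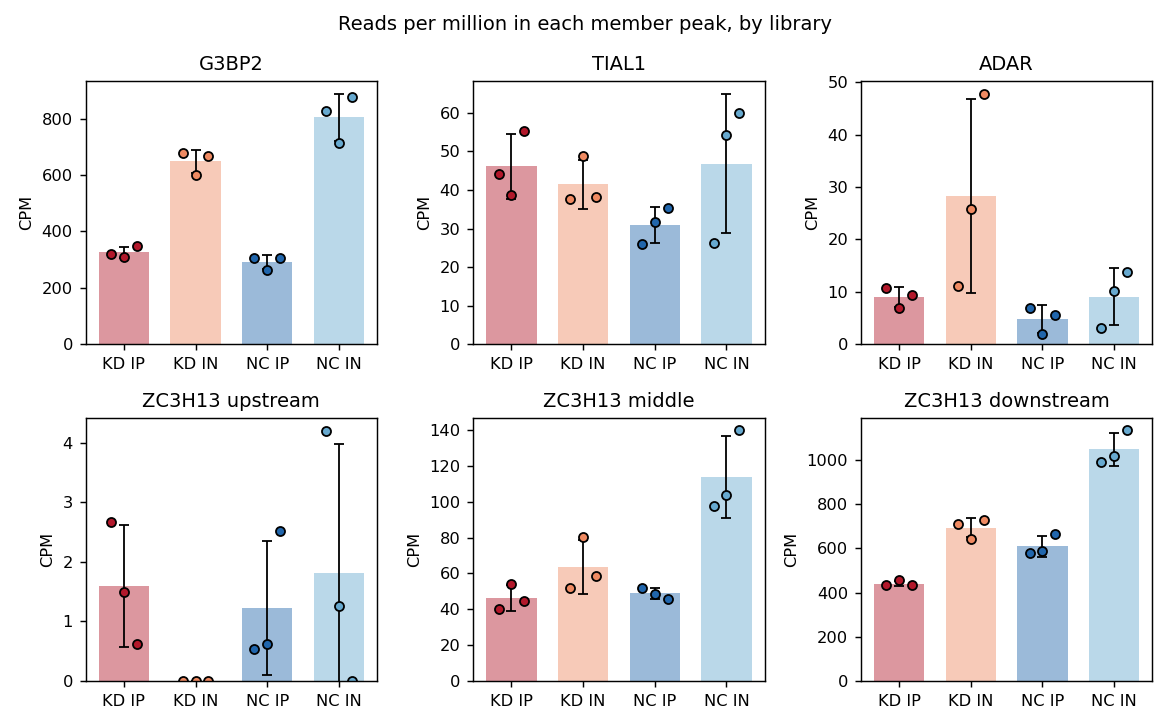
CPM of each member peak in the 12 libraries; points are libraries, bars the mean and whiskers the SD of 3 libraries, on a linear axis from 0 that differs between panels. IP lies below IN in G3BP2 and in the downstream ZC3H13 peak in both KD and NC, and ADAR shows its widest spread in KD IN, from 11.2 to 47.8 CPM.

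G3BP2, one of the granule nucleators, was less abundant in IP than in IN libraries, in KD and in NC alike. Its peak had 320, 308 and 348 CPM in the 3 KD IP libraries against 676, 600 and 669 CPM in KD IN. It had 307, 262 and 305 CPM in NC IP against 826, 713 and 876 CPM in NC IN. Every IP library lay below every IN library of its condition. The edgeR log2 ratio was -0.996 ± 0.11 in KD (SE, adjusted p = 1.08e-07) and -1.47 ± 0.11 in NC (adjusted p = 2.89e-10), that is 1.99-fold and 2.76-fold lower. Only 6.06% of the 5113 tested peaks had a lower ratio in KD and 2.09% in NC.

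These ratios are relative to the average peak, because each library is scaled to its reads in peaks. A peak that is lower here could still be enriched over the transcriptome, which counts in peaks alone do not show. In the authors' deposited table all 6 peaks have a fold enrichment above 1, which a peak call selects for. In the KD set it is 1.23 for G3BP2, 3.18 for TIAL1, and 2.31 and 12.3 for the middle and upstream ZC3H13 peaks. In the NC set it is 1.78 for the downstream ZC3H13 peak and 4.5 for ADAR. Raw reads of the same set, IP over IN, gave 0.932 for G3BP2 and 2.03 for TIAL1. They gave 1.35 and 1.13 for the middle and downstream ZC3H13 peaks and 1.09 for ADAR. Scaling alone does not turn these ratios into the deposited folds. The median over all deposited peaks is 9.06, and 0.552% of peaks have a lower deposited fold than G3BP2.

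KD input held less of the G3BP2 peak than NC input, by a small margin. The KD IN values of 600 to 676 CPM were all below the NC IN values of 713 to 876 CPM, a log2 ratio of -0.31 ± 0.11 (edgeR adjusted p = 0.027, 1.24-fold lower). The call was lost in 8 of 18 alternatives, in which the adjusted p reached 0.23: with library size alone (log2 -0.24), with no filter (-0.26), with at least 50 reads (-0.26), and without KD IN replicate 1 (-0.28), KD IN replicate 2 (-0.23), KD IN replicate 3 (-0.26), NC IN replicate 1 (-0.24) or NC IN replicate 3 (-0.20). In IP the direction was the opposite, with 308 to 348 CPM in KD IP and 262 to 307 CPM in NC IP, and a log2 ratio of 0.16 ± 0.11 that did not pass (edgeR adjusted p = 0.28). Such opposite separation in input and IP was seen in 0.509% of all tested peaks. In IP it was narrow, with 308.2 CPM in the lowest KD IP library and 306.6 CPM in the highest NC IP library. With library size alone both separations were lost to overlap.

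TIAL1 had the only tested peak at a gene start among the 4 genes, and it passed no test. It had 44.3, 38.8 and 55.3 CPM in KD IP against 37.6, 48.8 and 38.1 CPM in KD IN, values that overlapped (log2 0.15 ± 0.29, edgeR adjusted p = 0.70). In NC IP it had 26.0, 31.8 and 35.2 CPM against 26.2, 54.3 and 60.1 CPM in NC IN, again with overlap (log2 -0.59 ± 0.30, edgeR adjusted p = 0.11). The NC difference passed without NC IN replicate 1, the lowest of the 3 (log2 -0.84, edgeR adjusted p = 0.024; 0.024 to 0.49 over its 18 alternatives). All KD IP libraries lay above all NC IP libraries, with 38.8 to 55.3 CPM in KD IP and 26.0 to 35.2 CPM in NC IP, yet the fitted difference did not pass (log2 0.57 ± 0.28, edgeR adjusted p = 0.11). Input did not separate the conditions (log2 KD IN over NC IN -0.16 ± 0.30, edgeR adjusted p = 0.70).

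ADAR, the RNA editor, was higher in KD input than in NC input, on few reads. The 3 KD IN libraries had 11.2, 25.8 and 47.8 CPM (11, 27 and 44 reads) against 3.14, 10.1 and 13.9 CPM (3, 8 and 12 reads) in NC IN. The groups overlapped, since KD IN replicate 1 lay below NC IN replicate 3. The log2 ratio was 1.65 ± 0.61 (edgeR adjusted p = 0.032, 3.13-fold higher), and 94.4% of tested peaks had a lower one. The call was lost without KD IN replicate 3 (log2 1.12, edgeR adjusted p = 0.18) and without NC IN replicate 1 (log2 1.27, edgeR adjusted p = 0.11), and over 18 alternatives the adjusted p lay between 0.0063 and 0.18.

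The ADAR peak was less abundant in KD IP than in KD IN. It had 10.7, 6.97 and 9.31 CPM in KD IP, all below the lowest KD IN library at 11.2 CPM, and a log2 ratio of -1.64 ± 0.56 (edgeR adjusted p = 0.019). With library size alone the groups overlapped, although the fit still passed. The call was lost without KD IN replicate 3 (log2 -1.09), KD IP replicate 2 (-1.47) or KD IP replicate 3 (-1.65) and with the replicate block (-1.48), with edgeR adjusted p values of 0.0036 to 0.15 over 18 alternatives. In NC the peak had 6.90, 1.87 and 5.66 CPM in IP against 3.14, 10.1 and 13.9 CPM in IN, which overlapped (log2 -0.86 ± 0.67, edgeR adjusted p = 0.30). Between the IP groups, KD IP with 6.97 to 10.7 CPM did not overlap NC IP with 1.87 to 6.90 CPM, but the difference did not pass (log2 0.87 ± 0.62, edgeR adjusted p = 0.28). With library size alone these IP groups overlapped.

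ZC3H13, the m6A writer cofactor, was lower in KD than in NC in both of its tested peaks in input. The downstream peak had 711, 644 and 728 CPM in KD IN against 993, 1020 and 1135 CPM in NC IN. The middle peak had 51.8, 80.3 and 58.7 CPM in KD IN against 97.4, 104 and 140 CPM in NC IN. Neither pair of groups overlapped. The log2 ratios were -0.60 ± 0.10 for the downstream peak (edgeR adjusted p = 5.06e-05) and -0.83 ± 0.22 for the middle peak (edgeR adjusted p = 0.0039), that is 1.51-fold and 1.78-fold lower. Without NC IN replicate 3 the middle peak missed the threshold (log2 -0.60, edgeR adjusted p = 0.053; 0.0020 to 0.053 over 18 alternatives), and the downstream peak passed in all 18. Both peaks belong to 1 gene and to the same libraries, so they are not independent observations.

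In the immunoprecipitates the downstream peak was lower in KD as well. It had 434, 456 and 433 CPM in KD IP against 578, 587 and 665 CPM in NC IP (log2 -0.47 ± 0.10, edgeR adjusted p = 0.00064), and passed in all 18 alternatives. The middle peak had 40.0, 54.3 and 44.7 CPM in KD IP and 52.0, 48.6 and 45.9 CPM in NC IP, which overlapped (log2 -0.07 ± 0.22, edgeR adjusted p = 0.82).

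Against input, the downstream ZC3H13 peak was lower in IP in KD (log2 -0.65 ± 0.10, edgeR adjusted p = 1.34e-05) and in NC (-0.78 ± 0.10, edgeR adjusted p = 8.02e-07). The middle peak was lower in NC (-1.21 ± 0.22, edgeR adjusted p = 5.33e-05), where no library overlapped. In KD it was not called (-0.46 ± 0.22, edgeR adjusted p = 0.096) except without KD IN replicate 1 (-0.63, adjusted p = 0.043; 0.043 to 0.41 over 18 alternatives). Within a library the 2 peaks can be set against each other without any scaling. Reads in the middle peak came to 10.5% ± 1.36 of those in the downstream peak in KD IP and 9.27% ± 2.79 in KD IN, and to 8.06% ± 1.06 in NC IP and 10.8% ± 1.36 in NC IN (SD, n = 3). All NC IP libraries, at 6.91% to 8.99%, lay below all NC IN libraries, at 9.81% to 12.3%, whereas the KD groups overlapped. A two-sided exact permutation test gave p = 0.1 for NC IP against NC IN and for KD IP against NC IP, the smallest that 3 against 3 allows, and p = 0.5 for the other 2 comparisons.

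**Figure D3:**
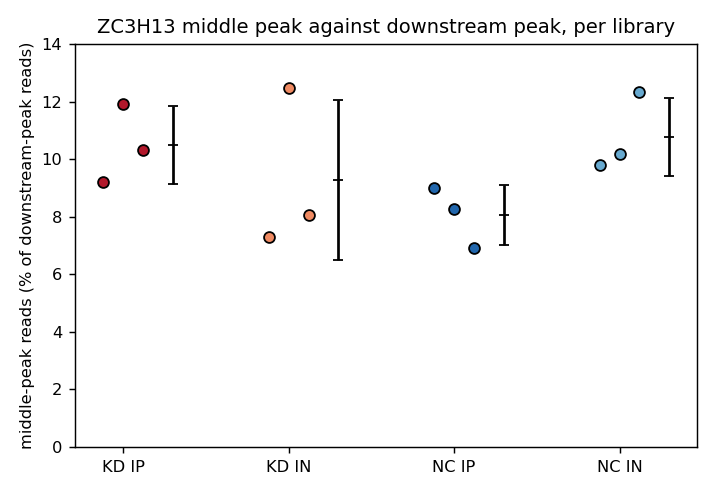
Reads in the middle ZC3H13 peak as a percentage of reads in the downstream ZC3H13 peak of the same library; points are libraries and the bars beside them mean and SD (n = 3). The NC IP libraries lie at 6.91% to 8.99%, below the NC IN libraries at 9.81% to 12.3%, and the KD groups overlap.

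The upstream ZC3H13 peak had too few reads to be tested. It held 5, 3 and 1 reads in KD IP and 0 in every KD IN library, against 1, 1 and 4 reads in NC IP and 4, 1 and 0 in NC IN. With the empty KD IN group set to a floor of 3 reads, KD IP was 1.61-fold higher than KD IN. This ratio takes the 9 KD IP reads as exact, so it is not a lower limit. The 95% counting interval, before scaling, was 4.12 to 17.1 reads for KD IP and 0 to 3.69 reads for KD IN. In the fit with no filter neither KD IP over KD IN (edgeR adjusted p = 0.11) nor KD IN over NC IN (edgeR adjusted p = 0.11) passed. Of the 5 NC IN reads, 4 were in replicate 1. NC IP over NC IN was 0.617, with a 95% counting interval of 0.157 to 2.55, and KD IP over NC IP was 1.39 (0.441 to 4.74). The intervals cover counting error only, and the ratio with the floor leaves out the counting error of KD IP. The authors' deposited table gives this peak a log2 change of 10.92 in enrichment, with an adjusted p of 0.78, which rests on the empty KD IN group.

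Counts over the 5 tested peaks can be read against all 5113. Lower in IP were 3 of 5 in KD (G3BP2, ADAR and the downstream ZC3H13 peak), where 44.9% of all tested peaks were called, 21.4% lower and 23.5% higher, and 3 of 5 in NC (G3BP2 and both ZC3H13 peaks), where 46.7% were called, 24.0% lower and 22.7% higher. No member was called higher in IP. The members' median log2 was -0.65 in KD and -0.86 in NC, against 0.23 and 0.13 over all tested peaks. In input 4 of 5 differed between KD and NC, 1 higher and 3 lower, where 39.8% of all were called, 17.9% higher and 21.9% lower. In IP 1 of 5 differed, where 41.0% of all were called, 20.9% higher and 20.1% lower. Groups without overlap were 3 of 5 for IP against IN in KD, with 56.6% of all tested peaks, and 3 of 5 in NC, with 57.8%. They were 3 of 5 in KD IN against NC IN, with 44.8%, and 4 of 5 in KD IP against NC IP, with 57.9%.

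**Figure D4:**
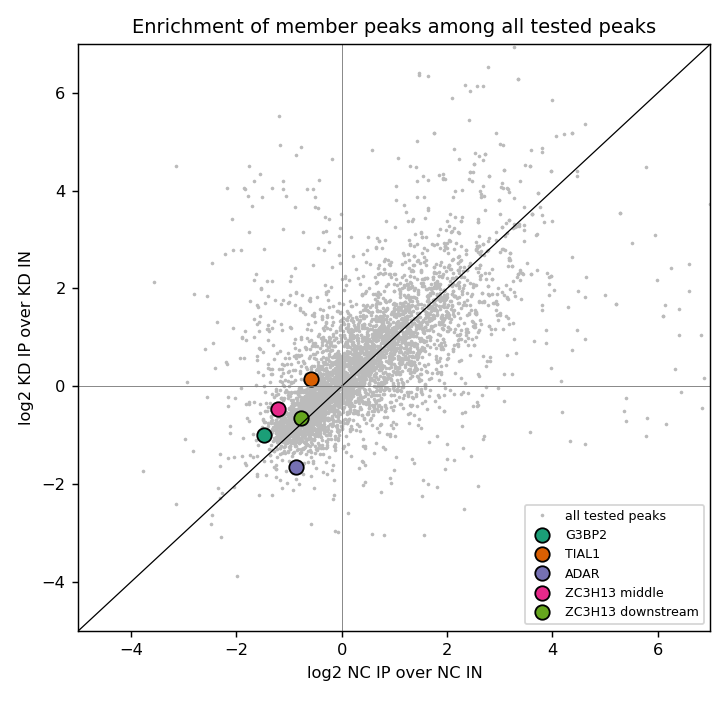
Fitted log2 ratio of IP over IN in NC (horizontal axis) and in KD (vertical axis) for all tested peaks (grey) and the 5 tested member peaks (coloured); the diagonal marks equal ratios. All 5 lie below 0 in NC, and TIAL1 alone of the members lies above 0 in KD (0.15 against -0.59 in NC).

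Whether the knockdown changed m7G enrichment beyond abundance was asked through the ratio of KD enrichment (IP over IN) to NC enrichment. None of the 5 tested peaks passed, and neither did any of the 5113 (0% called in the main edgeR fit, 610 at an unadjusted p under 0.05). Of all peaks, 21 passed with DESeq2, 16 in edgeR with the replicate block and 45 in edgeR with no filter, none of them a member. G3BP2 had a change of 0.47 ± 0.16 (log2, SE; edgeR adjusted p = 0.25), the middle ZC3H13 peak 0.76 ± 0.31 (edgeR adjusted p = 0.35) and TIAL1 0.73 ± 0.41 (edgeR adjusted p = 0.49). The downstream ZC3H13 peak had 0.13 ± 0.14 and ADAR -0.78 ± 0.88 (edgeR adjusted p = 0.77 for each). Of these, G3BP2 and the middle ZC3H13 peak had an unadjusted p under 0.05. The median over all tested peaks was 0.08, with quartiles of -0.29 and 0.43.

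The 3 peaks with the larger positive values were called in the KD set, and ADAR and the downstream ZC3H13 peak in the NC set. Peak calls and counts come from the same reads, so set membership is not independent of this change. The authors' deposited table gives log2 changes of 0.35 for G3BP2, 0.63 for TIAL1, 0.64 for the middle and 0.01 for the downstream ZC3H13 peak, and -0.89 for ADAR, with adjusted p values of 0.42 to 0.98.

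**Figure D5:**
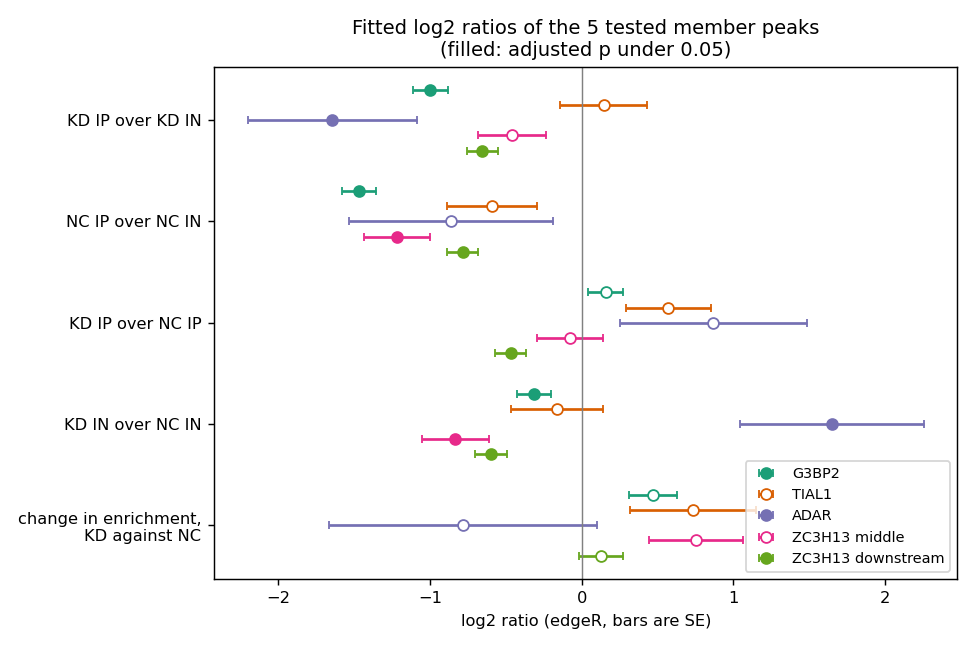
Fitted log2 ratios of the 5 tested member peaks in 5 comparisons; points are edgeR estimates, whiskers the SE, and filled points have an adjusted p under 0.05. In the change of enrichment, in the lowest row, every point is open, with values between -0.78 and 0.76.

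Other genes of the same pathways were counted from fixed lists, in which overlapping peaks of the KD and NC sets count separately. Only tested peaks that overlap a single coding gene were counted. Of 40 further stress granule genes, 19 had 39 tested peaks. In input 3 of these peaks rose and 14 fell in KD, and 22 did not pass (median log2 -0.19). Over all tested peaks 17.9% were called higher and 21.9% lower in this comparison, with a median of -0.01. YBX1, a Y-box mRNA-binding protein, rose to 8347 ± 888 CPM in KD IN, against 4102 ± 385 in NC IN (log2 1.03 ± 0.11, edgeR adjusted p = 3.66e-08). HNRNPA1, a splicing regulator, fell to 1515 ± 59.6 CPM, against 3980 ± 318 in NC IN (log2 -1.39 ± 0.09, edgeR adjusted p = 1.51e-11). PABPC4, a cytoplasmic poly(A)-binding protein, rose (log2 0.92 ± 0.10, edgeR adjusted p = 1.11e-07) and FMR1, a translational repressor that is also on the m6A reader list, fell (-1.36 ± 0.30, edgeR adjusted p = 0.00066). The single G3BP1 peak was not tested, with 9 IP and 6 IN reads in KD, and 8 IP and 1 IN reads in NC.

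Of 21 further RNA editing genes and partners, 4 had 13 tested peaks, of which 3 rose and 5 fell in KD input, where 17.9% of all tested peaks were called higher and 21.9% lower (median log2 -0.36, against -0.01 over all). RBM47, an RNA-binding protein of C-to-U editing, rose to 119 ± 9.06 CPM in KD IN, against 70.7 ± 11.1 in NC IN (log2 0.75 ± 0.18, edgeR adjusted p = 0.0020). DHX9, an RNA helicase, fell to 204 ± 37.7 CPM in KD IN, against 271 ± 12.3 in NC IN (log2 -0.41 ± 0.14, edgeR adjusted p = 0.024). The tested peaks of ADARB1, the other catalytically active adenosine deaminase of this family, were higher in IP than in input in KD and in NC. The tested NC-set one had 81.9 ± 14.4 CPM in KD IP against 4.12 ± 1.29 in KD IN (447 and 12 reads). In NC it had 61.3 ± 12.03 CPM in IP against 2.66 ± 0.43 in IN (315 and 7 reads). These are log2 ratios of 4.30 ± 0.36 and 4.47 ± 0.41 (edgeR adjusted p = 8.39e-10 and 3.40e-09). Untested ADARB1 peaks, on few reads, had no common direction. In 1 of them KD had 13 IP and 0 IN reads, and NC had 3 IP and 11 IN reads. The difference between ADARB1 and ADAR was not tested.

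Of 27 m6A writers, erasers and readers, 8 had 18 tested peaks, of which 2 rose and 9 fell in KD input, set against the same 17.9% and 21.9% of all tested peaks (median log2 -0.64, against -0.01). The WTAP peak was tested but is not among these 18, because it also overlaps SOD2. IGF2BP3, an mRNA-stabilising reader, averaged 0.339 ± 0.586 CPM in KD IN against 33.7 ± 5.44 in NC IN (edgeR adjusted p = 1.99e-05). YTHDF3, a cytoplasmic reader, rose to 68.2 ± 28.5 CPM in KD IN, against 28.3 ± 7.11 in NC IN (log2 1.25 ± 0.30, edgeR adjusted p = 0.0016). RBM15, an RNA-binding subunit of the writer complex, had an enrichment change of -0.75 ± 0.45 in its NC-set peak, which did not pass (log2, edgeR adjusted p = 0.52). HNRNPC (-0.86 ± 0.27) and IGF2BP3 (4.69 ± 1.52, on the near-empty KD IN group) had smaller p values for this change. They went in opposite directions, and neither passed (edgeR adjusted p = 0.23 and 0.24). In the change of enrichment none of the 39, 13 and 18 tested peaks of these 3 lists passed in the main edgeR fit, with medians of 0.11, -0.07 and 0.40.

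Peaks of other genes with the most similar pattern over the 12 libraries were ranked by the root mean square difference of centred log2 CPM, among 4692 peaks. For G3BP2 they were in SRSF5, SMARCA4 and MAN1A2 (0.16 to 0.17, against a median of 0.99 over all other peaks). For the downstream ZC3H13 peak they were in UBTF, THRAP3 and SMARCE1 (0.10 to 0.11, median 0.87). For TIAL1 they were in PRELID1, MTCH1 and INF2 (0.25 to 0.27, median 0.77), and for ADAR in MLKL, SPOCK1 and PRKCB, at a greater distance (0.50 to 0.54, median 1.24).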

How the data were processed

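Per the submitters' processing notes, fastp 0.23.4 was used and GRCh38 was the build; the aligner, peak caller and counter are not given in the sources used here. The counts, as deposited, are unnormalized reads in each peak of each library. The authors also deposited a fold enrichment per peak (a ratio), p values of peak calls, a log2 change in enrichment with its p value, and another column, the length in bases. Peak names carry KD or NC, and the 2 sets are treated as separate calls.

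Genes were assigned by overlap with RefSeq bodies, and the gene strand came from the RefSeq start windows. Counts were fitted over all peaks with edgeR 4.0.16 in R 4.3.3: filterByExpr (minimum count 10, minimum total 15; 5113 of 9958 peaks and 5 of 6 members kept), TMM, and 4 group means with 8 residual degrees of freedom, and a two-sided quasi-likelihood F test, with Benjamini-Hochberg adjustment over all tested peaks and a threshold of 0.05. CPM used TMM-scaled totals. SE is the log2 ratio over the root of F. Alternatives were a replicate block, DESeq2 1.42.0, 1 peak per overlapping cluster, no filter, a minimum of 50 reads, library size alone and leaving out each library. Same-numbered IP and IN libraries of a condition deviated together weakly at most (r = -0.02 to 0.07 over 6 pairs). Other-numbered ones gave r = -0.06 to 0.05 over 12 pairs. In KD each same-numbered r (0.05 to 0.06) exceeded every other-numbered one, all negative, and in NC they overlapped. KD and NC of the same fraction and number gave r = -0.09 to 0.05. The labels number IP and IN alike and these values cannot exclude pairs. The main fit did not use the numbers, and the replicate block did.

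Every member peak is given. The list genes named are among the 4 per list with the smallest p in input or in the change; G3BP1, the enrichment of ADARB1 in each condition and the markers singled out were added after their values were seen. Members and lists were chosen with earlier results of these data known.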

Additional observations from a re-analysis of the deposited data

Results flagged for a closer look

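The G3BP2 peak drew attention because KD and NC separated in opposite directions in the 2 kinds of library. All KD IP libraries (308 to 348 CPM) lay above all NC IP libraries (262 to 307 CPM), and all KD IN libraries (600 to 676 CPM) lay below all NC IN libraries (713 to 876 CPM). The test of this difference, the change in enrichment, was 0.47 on the log2 scale and did not pass (edgeR adjusted p = 0.25; 0.12 to 0.44 over 18 alternatives). The same opposite separation was seen in 26 of 5113 tested peaks (0.509%). With library size alone both separations of G3BP2 were lost to overlap.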

How the results depend on the processing

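Over 5 tested peaks, 5 comparisons and 18 alternatives, 429 of 450 log2 values kept their direction and their side of the threshold, 15 lost a call, 2 gained one and 4 reversed. The 15 lost calls belong to G3BP2 (8), ADAR (6) and the middle ZC3H13 peak (1), and fewer samples or other scaling apart, the cause was not tested. No reversed value had been called. Without NC IN replicate 2 and without NC IN replicate 3, TIAL1 in KD IN over NC IN was 0.0011 and 0.12 (-0.41 to 0.12 leaving out each library). Without KD IP replicate 1 the middle ZC3H13 peak in KD IP over NC IP was 0.020 (-0.21 to 0.020), and without NC IN replicate 3 the enrichment change of the downstream one was -0.025 (-0.025 to 0.19). Leaving out each library, members called were 0 for the enrichment change, 2 to 4 in KD IP over KD IN, 3 to 4 in NC IP over NC IN, 2 to 4 in KD IN over NC IN (2 without KD IN replicate 3, NC IN replicate 1 or NC IN replicate 3) and 1 in KD IP over NC IP. The replicate block left 2 members called in KD IP over KD IN, with ADAR lost, and changed no other member call. Over all peaks the enrichment change gave 0 calls in the main edgeR fit and 21 in DESeq2. Other edgeR fits gave 45 with no filter, 16 with the replicate block and 0 to 1 without a library. With 1 peak per overlapping cluster, 1401 peaks were called in KD IP over KD IN and 1504 in NC IP over NC IN, of 3531 tested. The main fit called 2296 and 2389 of 5113 tested. Library size alone moved the median of all peaks to 0.40 in KD IP over KD IN and 0.42 in NC IP over NC IN, against 0.23 and 0.13. Depth limits ADAR, at 23 to 82 reads per group, and left the upstream ZC3H13 peak untested.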
